A study of Mus musculus with 8 samples.

Results

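The respiratory chain genes of mouse peritoneal macrophages are described here in 4 groups of arrays. They were chosen by symbol: Nduf genes for complex I, Sdha to Sdhd for complex II, Uqcr genes for complex III, Cox4 to Cox8 genes for complex IV and Atp5 genes for complex V. A probe for 93 such genes was on the array, and 89 were well above background on all 8 arrays. These 89 were 37 complex I subunits, 8 complex I assembly factors of the Ndufaf family, and 4, 8, 15 and 17 subunits of complexes II to V. The whole series held 22910 features (genes, or probes with no gene name) that passed the filter on dim probes. That filter asked only for both arrays of at least 1 group. All features therefore include some that were not well above background on all 8 arrays, unlike the 89 genes.

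In the chain, complex I takes electrons from NADH and complex II from succinate, and both hand them to ubiquinone. Complex III passes them to cytochrome c and complex IV to oxygen, while complexes I, III and IV pump protons and complex V uses the gradient to make ATP. Macrophages at rest or after interleukin-4 are known to lean on this pathway, and inflammatory activation is known to turn it down and to let complex I release oxygen radicals.

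Fosl1 encodes Fra-1 and Fosl2 encodes Fra-2, Fos-related proteins that pair with Jun proteins to form the DNA-binding factor AP-1. Each group had 2 arrays of total RNA, labelled with Cy3 and hybridised to single-colour Agilent arrays. Fra-1 controls were labelled wild-type Fra-1lox/lox and Fra-1 knockouts Fra-1lox/lox MxCre-/+, and both were labelled as elicited with thioglycollate, an irritant that draws cells into the peritoneum. Fra-2 controls were labelled wild-type Fra-2lox/lox and Fra-2 knockouts Fra-2lox/lox LysMCre-/+, with no such label. Mx Cre is switched on by interferon and is not restricted to macrophages, whereas LysM Cre acts in myeloid cells. All mice were 8 weeks old, male or female, and of 129/C57Bl6 background, and the controls were littermates. Lavage cells were plated overnight, and the adherent cells were used. Mouse line, thioglycollate and preparation cannot be told apart, and nothing in the labels ties a control array to a knockout array. The labels also do not say whether the arrays of a group came from separate mice, so the p-values measure only the spread between these samples.

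Signal is given as normalized log2 signal, the log2 of an array's processed signal minus the log2 of its 75th percentile, so that 0 is that percentile. Differences are log2 differences of group means with the standard error (SE) of limma's fit over all 8 arrays, and a gene was called where its p, adjusted over all features, was under 0.05. Spots well above background made up 47.7% (Fra-2 knockout 1) to 57.6% (Fra-2 control 1) of an array. Fosl1 read -2.69 and -1.95 in the Fra-1 controls and -4.76 and -4.17 in the Fra-1 knockouts, where it was not well above background, at least 3.94-fold lower (adjusted p = 0.350, not called). For Fosl2 the probes disagreed. The brighter read 5.52 and 5.58 in the Fra-2 controls and 6.45 and 7.15 in the arrays labelled Fra-2 knockout, and the dimmer read -2.59 and -2.63 against -3.94 and -3.81. The dimmer was well above background on only 4 of the 8 arrays, and not on Fra-2 knockout 1. Whether either probe lies in the deleted part is not given in the sources used here, so the Fra-2 directions below rest on the labels. Of 10 macrophage markers, Cd163 was not well above background in the Fra-1 line, and the mean level of the list ran from 4.06 to 4.28 there and from 5.33 to 5.66 in the Fra-2 line. These means include the Cd163 value. The macrophage markers went both ways between the controls, with 6 of 10 called lower in Fra-1 controls and 2 called higher. Fibroblast markers averaged 2.52 to 2.98 in Fra-1 controls, 1.02 to 1.86 in Fra-1 knockouts and -2.99 to -1.82 in the Fra-2 line, where Fbn1, Lum and Pdgfra were not well above background.

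**Figure D1:**
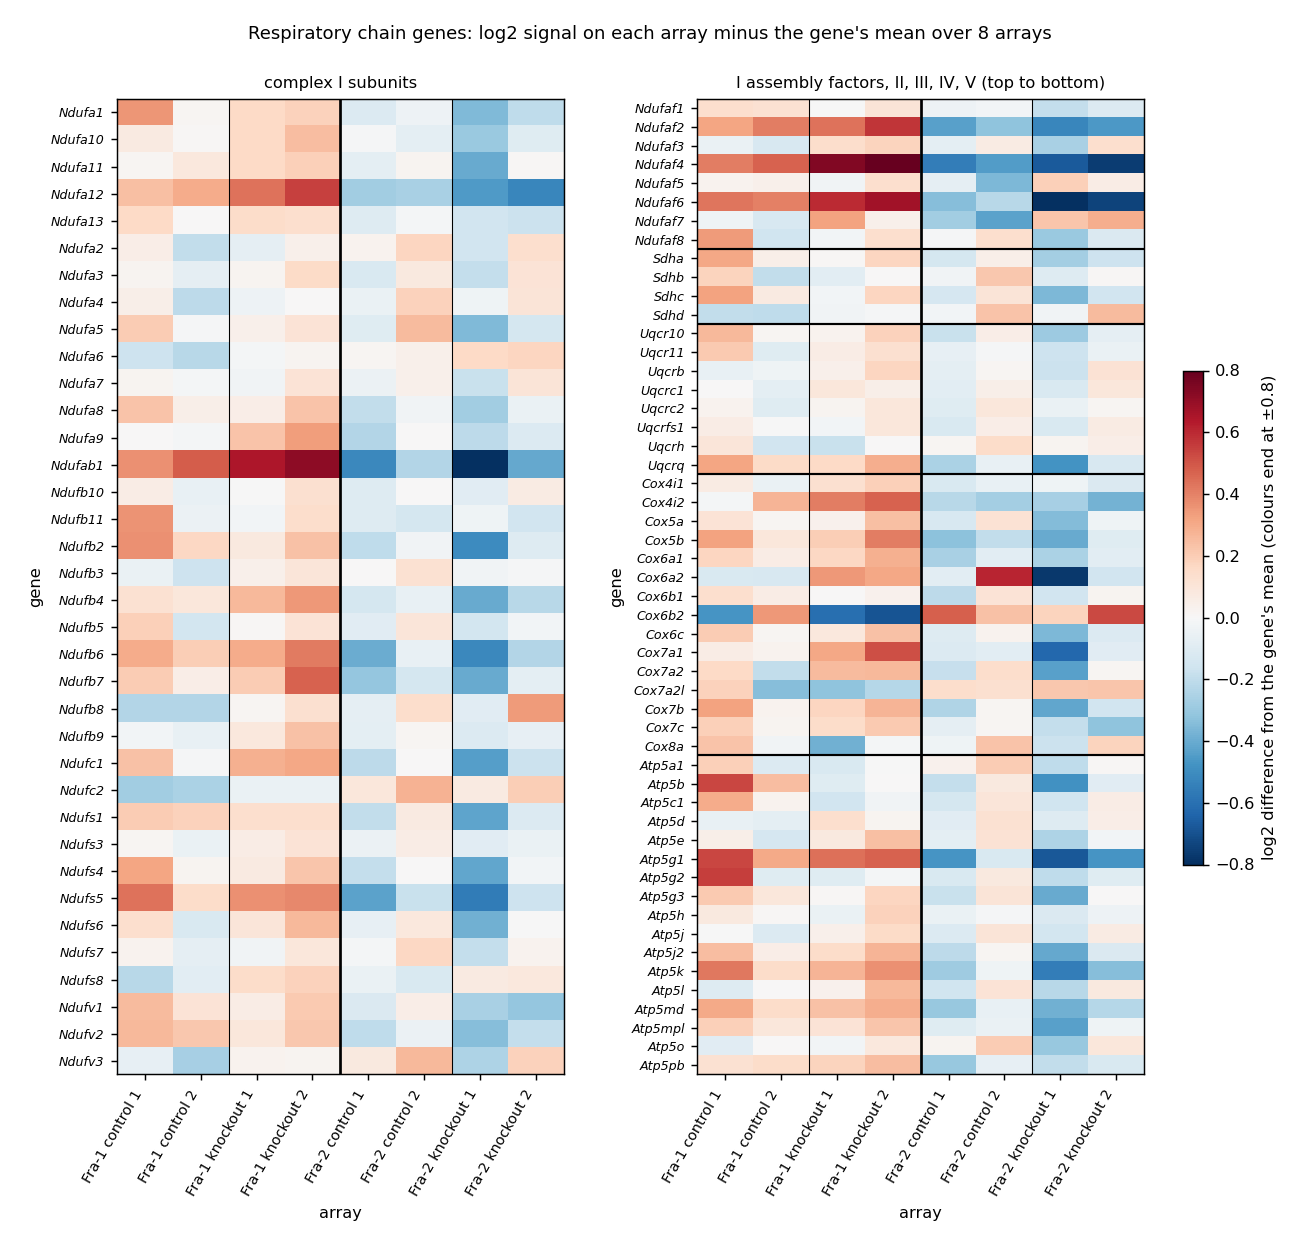
Each row is a gene, 88 of the 89, and each column 1 array; colour is the log2 signal minus the gene's mean over the 8 arrays, with colours ending at ±0.8. Most rows are pale, and Ndufaf4, Ndufaf2, Ndufaf6, Ndufab1, Ndufa12 and Atp5g1 are red on all Fra-1 arrays and blue on all Fra-2 arrays.

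The comparison of the control groups, Fra-1 controls minus Fra-2 controls, asks how the same genes read in floxed mice of the 2 lines without Cre. Most respiratory chain genes lay close together in this comparison. Their median log2 difference was 0.11, against -0.01 for all features, and their median absolute difference was 0.20, against 0.46 for all features. A total of 7 of the 89 genes (7.87%) passed the test, 6 higher and 1 lower, whereas 36.1% of all features did (18.7% higher and 17.3% lower). The 2 sets are not filtered alike. The 89 genes were well above background in both lines, and all features include some that were so in 1 line only. In limma's fit 16 of the 89 genes had an unadjusted p under 0.05, against 46.8% of all features. The arrays did not overlap for 39 genes that were higher and 9 that were lower, against 35.7% and 36.1% of all features (71.8% in all). The 95% interval lay within 2-fold in either direction for 82 of the 89 genes (92.1%), against 50.0% of all features. The 89 genes were read with a median SE of 0.15, and all features with 0.19.

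Many markers of other cells and of macrophage subtypes moved much further in this comparison. All 9 tested fibroblast markers were called, 8 of them higher in Fra-1 controls, with a fitted median of 5.91 that includes the 3 not well above background in the Fra-2 line. Of 7 tested markers of large resident peritoneal macrophages, 6 were called lower (fitted median -6.68), and Timd4 was not well above background in the Fra-1 line. B cell markers (6 of 6, fitted median -4.78), mast cell markers (7 of 7, -5.36) and T and NK cell markers (4 of 5, -3.01) were also called lower. The remaining T and NK cell marker was called higher (0.70). Mesothelium markers were called higher (8 of 9, 2.94). Neutrophil markers went both ways, with 2 of 8 called higher and 1 lower, and 0 of 3 red cell markers were called. The part of these cells in the differences of respiratory chain genes was not tested. In RNA from mixed cells, fewer cells of a type and less RNA per cell cannot be told apart.

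The assembly factors of complex I build the complex and are not part of it when finished. Of 8, 3 rose in Fra-1 controls and none fell, a share of 37.5% that lies near the 36.1% of all features. Ndufaf4, which helps to assemble the ubiquinone-binding module, read 1.26 and 1.36 in Fra-2 controls and 2.22 and 2.29 in Fra-1 controls. Both Fra-1 arrays lay above both Fra-2 arrays, and the difference was 0.94 (SE 0.11, 1.92-fold, adjusted p = 0.00202). Its dimmer probe gave 0.71. Ndufaf2, the assembly chaperone whose place is later taken by the subunit Ndufa12, read 1.64 and 1.75 in Fra-2 controls and 2.39 and 2.48 in Fra-1 controls. It rose by 0.74 (SE 0.12, adjusted p = 0.00548), with no overlap. Ndufaf6, an early assembly factor, read 0.04 and 0.16 in Fra-2 controls against 0.81 and 0.78 in Fra-1 controls, and it also rose with no overlap, by 0.70 (SE 0.11, adjusted p = 0.00548). These 3 calls held in every alternative fit that gave a test. The other 5 assembly factors were not called: Ndufaf7, a mitochondrial protein methyltransferase, differed by 0.27 (adjusted p = 0.190), and Ndufaf1, Ndufaf3, Ndufaf5 and Ndufaf8 lay between -0.08 and 0.25.

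Among the 37 complex I subunits, 2 rose and 1 fell (8.11% called, against 36.1% of all features). All 3 are accessory subunits, which surround the catalytic core, and so are 29 of the 37. Ndufa12, the partner of Ndufaf2, read 4.79 and 4.81 in Fra-2 controls and 5.31 and 5.37 in Fra-1 controls. Its difference was 0.54 (SE 0.11, adjusted p = 0.0127), larger than the spread between arrays. Ndufab1, the mitochondrial acyl carrier protein, which also serves fatty acid and iron-sulfur cluster synthesis, read 0.18 and 0.45 against 1.06 and 1.17. It rose by 0.80 (SE 0.23, adjusted p = 0.0404), and its Fra-2 arrays were spread more widely than its Fra-1 arrays. Ndufc2, a membrane-arm subunit, went the other way, with 5.47 and 5.65 in Fra-2 controls and 5.10 and 5.12 in Fra-1 controls, a difference of -0.45 (SE 0.12, adjusted p = 0.0320). Ndufs5, an accessory subunit on the intermembrane side, just missed the threshold at 0.59 (adjusted p = 0.0546).

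None of the 7 core subunits of complex I, which carry electron transfer, was called, and their median difference was -0.02. Ndufv2, an iron-sulfur subunit of the NADH-oxidising module, differed by 0.36 (adjusted p = 0.0711), and its partner Ndufv1, which binds NADH, by 0.21 (adjusted p = 0.248). Ndufs1, the largest iron-sulfur subunit, read 4.41 and 4.68 in Fra-2 controls and 4.81 and 4.79 in Fra-1 controls, a difference of 0.25 (95% interval -0.13 to 0.64). Ndufa4, first described in complex I and now counted with complex IV, read 5.32 and 5.56 against 5.43 and 5.17, so that the groups overlapped. By its symbol it is kept with the complex I subunits in all counts and medians here. Ndufa4l2, a related hypoxia-induced gene, was well above background on 3 arrays, all of the Fra-1 line (Fra-1 control 2 at -2.69, Fra-1 knockout 1 at -2.69 and Fra-1 knockout 2 at -3.58), and on no Fra-2 array.

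In complexes II and III no gene was called. Sdhd, a membrane anchor of complex II, read 5.91 and 6.16 in Fra-2 controls and 5.73 and 5.73 in Fra-1 controls, a difference of -0.30 (adjusted p = 0.164). Sdha, the flavoprotein that oxidises succinate, went the other way at 0.22 (adjusted p = 0.287). Sdhb, the iron-sulfur subunit, and Sdhc, the other anchor, gave -0.10 and 0.21. The 2 probes of Sdhb gave -0.10 and -0.40. The complex III genes were the tightest set, with a median of 0.03 and a range of -0.11 to 0.39. The core protein Uqcrc1 differed by -0.02 (95% interval -0.33 to 0.30) and the Rieske iron-sulfur protein Uqcrfs1 by 0.07 (-0.26 to 0.39). At the upper end, Uqcrq, a small accessory subunit, read 6.60 and 6.79 against 7.17 and 7.01 (0.39, adjusted p = 0.117).

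Complex IV has subunits with tissue isoforms, and none of its 15 genes was called. Cox4i1, the general form of subunit 4, read 7.24 and 7.30 in Fra-2 controls and 7.43 and 7.31 in Fra-1 controls (0.10, 95% interval -0.18 to 0.38). Its lung and hypoxia form Cox4i2 read -1.37 and -1.42 against -1.16 and -0.87, a difference of 0.37 (adjusted p = 0.0822). Cox5b had the largest difference of the complex, at 0.47 (adjusted p = 0.0725). The general forms Cox6a1, Cox6b1, Cox7a2 and Cox8a gave 0.29, 0.15, 0.00 and 0.00. Of the muscle and testis forms, Cox7a1 gave 0.14, Cox6a2 -0.39 and Cox6b2 -0.42. Cox6b2 read -1.49 and -0.67 in the Fra-1 controls, a spread wider than its difference. Cox7a2l, which helps to join complexes III and IV, read 7.65 and 7.12 there and gave -0.21 (adjusted p = 0.414). The muscle form Cox8b and the genes Cox7b2 and Cox8c were above background on none of the arrays.

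A second probe existed for 24 of the 89 genes, 31 other probes in all, and 11 of these gave the opposite sign between the controls. Of those, only Ndufb11, an accessory subunit of complex I, had probes past 0.2 on both sides, with 0.28 from its brighter probe and -0.54 from its dimmer one.

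In complex V the 17 genes had the highest median of the 5 complexes, 0.19, and 1 was called. This was Atp5g1, 1 of the 3 genes for subunit c, the ring that turns as protons pass; the 3 genes encode the same mature protein behind different import sequences. Atp5g1 read 5.77 and 6.12 in Fra-2 controls and 6.78 and 6.54 in Fra-1 controls. The difference was 0.71 (SE 0.17, 1.64-fold, adjusted p = 0.0215), with all Fra-1 arrays above all Fra-2 arrays. Atp5g2 read 7.47 and 7.66 against 8.14 and 7.49, so that the higher value came from Fra-1 control 1 alone (0.25, adjusted p = 0.430). Atp5g3 read 6.92 and 7.20 against 7.31 and 7.19, and its groups overlapped (0.19, adjusted p = 0.472). The difference between the 3 genes was not tested. Atp5a1 and Atp5b, the subunits of the catalytic head, gave -0.07 and 0.45 (adjusted p = 0.743 and 0.122), and Atp5md, a membrane protein of the dimeric enzyme, gave 0.40 (adjusted p = 0.0719).

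**Figure D2:**
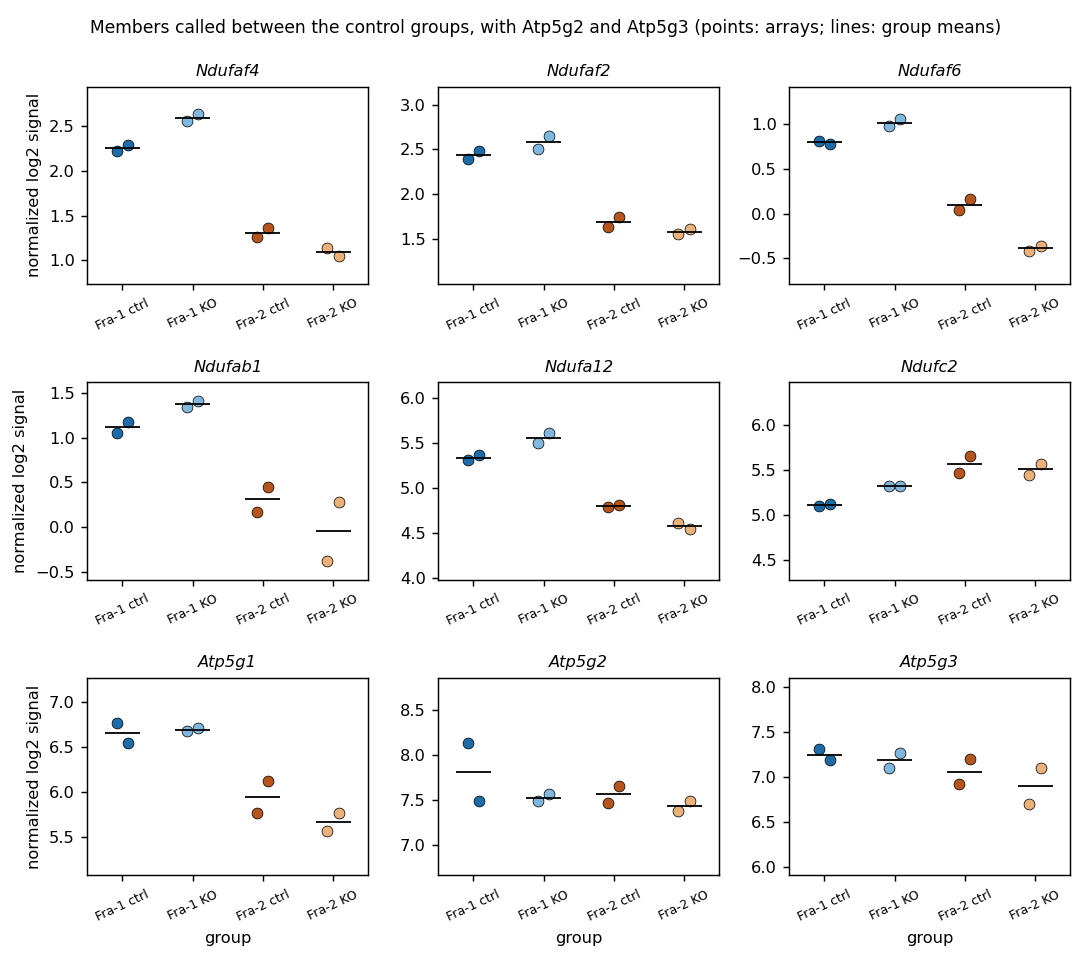
Points are the normalized log2 signals of single arrays and lines the means of 2 arrays, for the 7 genes called between the control groups and for Atp5g2 and Atp5g3; each vertical axis spans the same log2 range around the gene's own values. Atp5g1 runs from 6.54 to 6.78 in the Fra-1 line and from 5.57 to 6.12 in the Fra-2 line, whereas the arrays of the lines overlap for Atp5g2 and Atp5g3.

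The promoters of the 3 subunit c genes and of Ndufaf4 are shown because Atp5g1 and Ndufaf4 were called while Atp5g2 and Atp5g3 were not. Each runs 5' to 3' on the gene's strand from 250 bases before to 50 bases after the start site, from RefSeq on GRCm38.p6, which is not the build in the array headers. Capitals mark matches to 5 motifs searched on both strands: AP-1 (TGAGTCA or TGACTCA), NRF1 (GCGC, any base, then TGCGC), ERR (CAAGGTCA), ETS (CCGGAAG) and YY1 (AAGATGGC). Atp5g1 lies at chr11:96075582-96075881 (minus strand), Atp5g2 at chr15:102670998-102671297 (minus), Atp5g3 at chr2:73911277-73911576 (minus) and Ndufaf4 at chr4:24897833-24898132 (plus).
Atp5g1: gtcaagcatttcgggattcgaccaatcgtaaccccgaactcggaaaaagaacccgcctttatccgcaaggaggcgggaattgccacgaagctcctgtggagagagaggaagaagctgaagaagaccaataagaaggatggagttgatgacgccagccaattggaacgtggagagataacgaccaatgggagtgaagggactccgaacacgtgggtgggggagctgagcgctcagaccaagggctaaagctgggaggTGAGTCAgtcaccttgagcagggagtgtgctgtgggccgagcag
Atp5g2: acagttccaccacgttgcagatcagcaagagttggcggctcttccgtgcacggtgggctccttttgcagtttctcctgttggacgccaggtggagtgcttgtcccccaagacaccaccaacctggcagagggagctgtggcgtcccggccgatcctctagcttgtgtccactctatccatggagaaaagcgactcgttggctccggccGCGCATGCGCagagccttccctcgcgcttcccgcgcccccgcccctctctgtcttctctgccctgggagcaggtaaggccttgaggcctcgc
Atp5g3: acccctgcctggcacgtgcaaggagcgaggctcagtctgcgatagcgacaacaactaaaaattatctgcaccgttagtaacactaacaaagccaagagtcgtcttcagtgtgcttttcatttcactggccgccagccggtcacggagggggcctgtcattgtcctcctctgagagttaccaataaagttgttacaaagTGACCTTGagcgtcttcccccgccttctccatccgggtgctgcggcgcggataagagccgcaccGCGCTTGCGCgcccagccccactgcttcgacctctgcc
Ndufaf4: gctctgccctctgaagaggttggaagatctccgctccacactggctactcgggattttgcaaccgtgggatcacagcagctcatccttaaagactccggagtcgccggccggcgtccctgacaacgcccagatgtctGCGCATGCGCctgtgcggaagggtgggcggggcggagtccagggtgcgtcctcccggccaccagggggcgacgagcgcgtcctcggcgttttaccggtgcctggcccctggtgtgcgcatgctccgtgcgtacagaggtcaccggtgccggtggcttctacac
Atp5g1 holds an AP-1 match at bases 7 to 13 after the start site, Atp5g2 an NRF1 match at -42 to -33, Atp5g3 an ERR match at -52 to -45 and an NRF1 match at 13 to 22, and Ndufaf4 an NRF1 match at -113 to -104. A match is a description of letters and not a bound site. Of the 89 genes, 74 had a promoter in the table. NRF1 matches were in 19 of them (25.7%), against 10.1% of the tested genes that had a promoter, where a match in any promoter of a gene counted. ETS matches were also in 19 (25.7% against 17.9%), YY1 in 11 (14.9% against 4.79%), AP-1 in 6 (8.11% against 4.95%) and ERR in 4 (5.41% against 1.37%). The 6 genes with an AP-1 match were Atp5c1, Atp5g1, Ndufa13, Ndufa5, Ndufa9 and Uqcrh, and only Atp5g1 of them was called between the controls.

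The count of 7 moved with the arrays and the model used. It was 3 without Fra-2 control 1 and 4 without Fra-2 control 2, Fra-1 control 1 or Fra-1 control 2, which leave 1 array in a group. With a term for slide, the array slide on which samples were hybridised, 12 genes were called, all higher, and the median was 0.17. Ndufc2, the gene called lower in the main fit, thus lost its call. Quantile normalization called 16, 14 of them higher. The number of all features called moved as well. It ran from 6349 to 8969 over the settings other than leaving out single arrays, against 8264 in the main fit. The number of features tested differs with the filter. Atp5g1 was no longer called without Fra-1 control 1 (0.60, adjusted p = 0.0948) or without Fra-2 control 1 (0.54, adjusted p = 0.0949). Ndufa12, Ndufab1 and Ndufc2 also lost their calls without single arrays.

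Over both genotypes of each line, more respiratory chain genes lay higher in the Fra-1 line than lower. For 32 of the 89 genes (36.0%) all 4 Fra-1 arrays lay above all 4 Fra-2 arrays, and for 2 (2.25%), Ndufc2 among them, all lay below. Among all features 26.9% lay above and 24.3% below. Some other mitochondrial lists had larger shares above. These were 57.1% of mitochondrial ribosome genes (7.79% below), 72% of import and outer membrane genes (4% below) and 48.6% of other assembly factors (8.11% below). Inhibitors and replacement subunits had 40% above and 10% below. Electron carriers and dehydrogenases had a smaller share above, 30% (15% below). The tricarboxylic acid cycle (22.2% above, 27.8% below) and the regulators (19.0% above, 33.3% below) leaned the other way. The 32 were 15 complex I subunits, 4 assembly factors, no complex II gene, 1 complex III gene (Uqcrq), 6 complex IV genes and 6 complex V genes. The knockout arrays of Ndufaf4 read 2.55 and 2.63 in the Fra-1 line and 1.14 and 1.05 in the Fra-2 line, further apart than the controls. Ndufaf6 read 0.97 and 1.05 against -0.42 and -0.36, and Ndufa12 read 5.50 and 5.61 against 4.61 and 4.55. This description was added after the values were seen and carries no test.

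**Figure D3:**
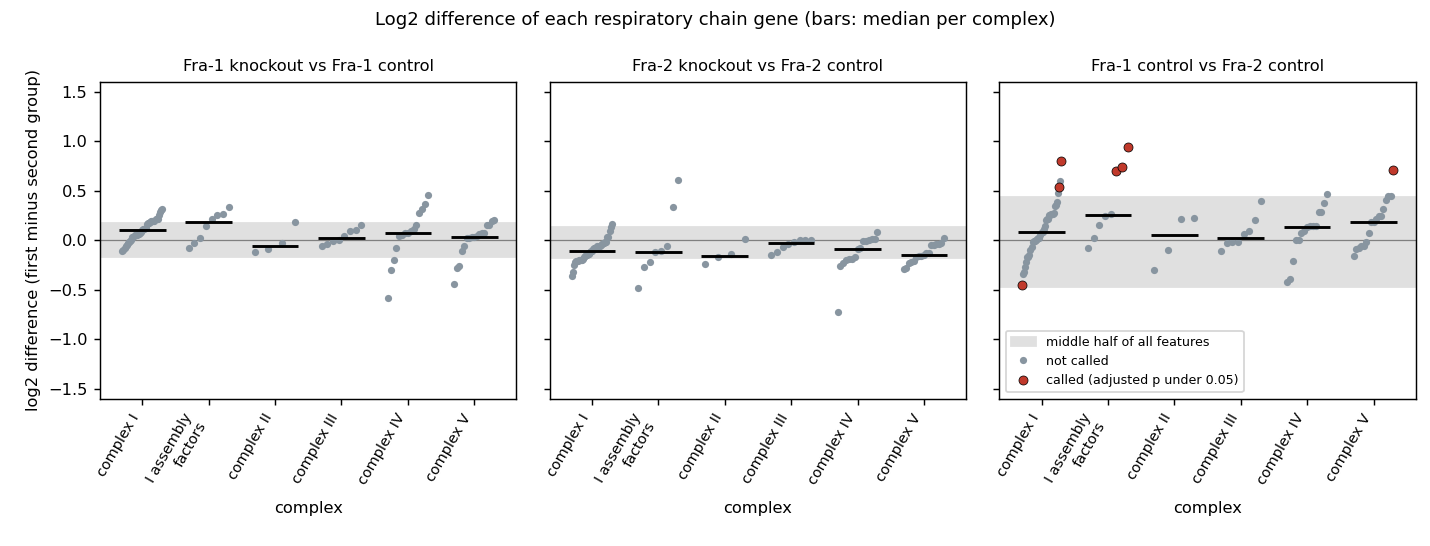
Each point is the log2 difference of 1 gene in 1 of the 3 comparisons, by complex; bars are medians per complex, the grey band the interquartile range of all features and red points genes called by limma. No gene is called in either knockout comparison, and the complex medians run from -0.16 to 0.18 there.

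Fra-1 knockouts were compared with Fra-1 controls to see what the loss of Fra-1 changes. No respiratory chain gene was called, and 0.0131% of all features were, or 3 features. At an unadjusted p under 0.05 there were 2 genes of 89, against 8.76% of all features, and the smallest adjusted p was 0.489. The median difference was 0.07 (all features 0.02), with 64 genes above 0 and 25 below. The 95% interval lay within 2-fold for 87 genes (97.8%; 70.8% of all features) and within 1.5-fold for 68 (76.4%; 41.6%).

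The complexes had medians of 0.10 (I), 0.18 (assembly factors), -0.06 (II), 0.02 (III), 0.08 (IV) and 0.04 (V). The smallest p was that of Ndufaf4, which read 2.22 and 2.29 in controls and 2.55 and 2.63 in knockouts (0.34, SE 0.11, adjusted p = 0.489). Its dimmer probe gave 0.14. Ndufs8, a core iron-sulfur subunit, read 3.02 and 3.16 against 3.39 and 3.43 (0.32, adjusted p = 0.507). In both genes the knockout arrays lay above the controls, as they did for 35 genes of 89, while 7 lay below without overlap. Of all features, 26.3% lay above and 19.7% below, 46% in all. Atp5b, the catalytic subunit of complex V, read 8.45 and 8.16 in controls and 7.82 and 7.91 in knockouts (-0.44, adjusted p = 0.605), and Atp5c1, the central stalk, gave -0.26. The 2 probes of Atp5c1 gave -0.26 and 0.25, so its direction is unsettled.

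Isoforms of complex IV spanned the whole range. Cox6a2 read -0.73 and -0.73 in controls and -0.25 and -0.29 in knockouts (0.45, adjusted p = 0.697). Cox6b2 lay at the other end, with -1.49 and -0.67 against -1.62 and -1.71 (-0.58, adjusted p = 0.642). Cox7a1 gave 0.37 and Cox4i2 0.31 (adjusted p = 0.662 and 0.607). The general forms Cox4i1, Cox6a1, Cox6b1, Cox7a2 and Cox8a gave 0.15, 0.11, -0.08, 0.27 and -0.30. In complex I, Ndufa9 and Ndufa12 gave 0.29 and 0.22, and the assembly factors Ndufaf6 and Ndufaf7 gave 0.22 and 0.26. Sdha, Sdhb, Sdhc and Sdhd gave -0.09, -0.03, -0.12 and 0.18. The dimmer probes of Sdhb, Sdhc and Cox8a gave 0.31, 0.28 and 0.082, of opposite sign, and with the mean of each gene's probes the complex II median was 0.11. Uqcrb and Uqcrc1 gave 0.15 and 0.10, Uqcrfs1 0.01, Ndufs1 -0.06, Ndufv1 -0.05 and Atp5a1 -0.10. The median of all 89 genes was -0.01 with a term for slide and 0.02 within slide 1. Leaving out Fra-1 control 1 gave 0.16, and leaving out Fra-1 control 2 gave -0.00. Fibroblast markers had a median of -1.33 in the same comparison, with limma calling 0 of 9 and 6 at an unadjusted p under 0.05, and their part was not tested.

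The arrays labelled Fra-2 knockout were compared with Fra-2 controls. Again no respiratory chain gene was called, while 0.00873% of all features (2) were. There were 3 genes at an unadjusted p under 0.05, against 8.75% of all features, and the smallest adjusted p was 0.279. The median was -0.11 (all features -0.01), with 16 genes above 0 and 73 below, and the 95% interval lay within 2-fold for 88 genes (98.9%; 70.8% of all features). The arrays of the groups did not overlap for 5 genes that were higher and 21 that were lower in the knockouts, against 16.2% and 18.8% of all features (34.9% in all).

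Marker lists also differed between these groups, with 0 called by limma. The counts at an unadjusted p under 0.05 in limma's fit stand against 8.75% of all features. Markers of large resident macrophages had a median of 0.95 (1 of 7 at an unadjusted p under 0.05 in limma's fit), and their mean level was 4.04 to 4.81 in controls and 4.85 to 5.38 in the arrays labelled knockout. Neutrophil markers had a median of 0.52 (2 of 8), with mean levels of -0.79 to -0.08 and 0.39 to 0.88. Their differences ran from -1.05 to 4.94, with 6 above 0 and 2 below. Red cell markers had a fitted median of 3.15 (0 of 3), and muscle and adipose markers ran from -1.67 to 1.67 (3 of 3). Each of these 2 lists had a marker not well above background in 1 of the groups. Macrophage markers had a median of -0.23 (2 of 10), and fibroblast markers, 3 of them not well above background, a fitted median of 0.49 (0 of 9). Their part in the respiratory chain values was not tested.

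The 2 smallest p were of assembly factors with differences of opposite sign. Ndufaf6 read 0.04 and 0.16 in controls and -0.42 and -0.36 in the arrays labelled knockout (-0.49, SE 0.11, adjusted p = 0.279). Ndufaf7 read 2.16 and 2.00 against 2.65 and 2.72 (0.61, SE 0.14, adjusted p = 0.282). The groups did not overlap for either gene. Ndufaf5, which hydroxylates the core subunit Ndufs7, gave 0.34 and Ndufaf4 -0.22. Cox6a2 read -0.68 and 0.01 in controls and -1.37 and -0.75 in the knockouts (-0.73, adjusted p = 0.558), so its 2 controls differed from each other by almost as much as the groups.

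Medians by complex were -0.11 (I), -0.12 (assembly factors), -0.16 (II), -0.03 (III), -0.09 (IV) and -0.15 (V). In complex I, Ndufa5 gave -0.32, Ndufv1 -0.25, Ndufa12 -0.22 and Ndufb4 -0.21, and Ndufs1 gave -0.20. Sdhc and Sdha gave -0.24 and -0.17, and Sdhb and Sdhd -0.14 and 0.01. Uqcrq and Uqcr10 gave -0.15 and -0.11, while Uqcrc1 and Uqcrfs1 gave 0.00 and 0.01. In complex IV, Cox7c gave -0.23, Cox7a1 -0.26, Cox4i2 -0.08 and Cox6b2 -0.00. In complex V, Atp5k and Atp5g1 gave -0.29 and -0.28, and Atp5b and Atp5a1 -0.23 and -0.21. The median of the 89 genes was -0.12 within slide 1 and -0.08 within slide 2. It was -0.01 without Fra-2 knockout 1, the array with the smallest share of spots above background, -0.18 without Fra-2 knockout 2, -0.18 without Fra-2 control 1 and -0.03 without Fra-2 control 2.

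**Figure D4:**
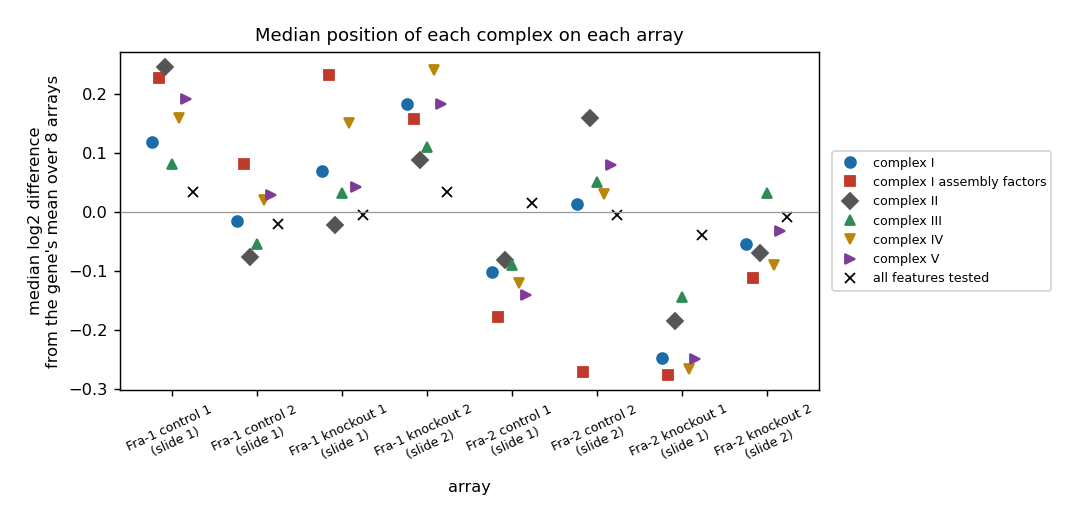
For each array, points give the median log2 difference of a complex from its genes' means over 8 arrays, and crosses the same for all features. The medians of all 89 genes run from -0.25 on Fra-2 knockout 1 to 0.18 on Fra-1 knockout 2, and those of all features from -0.04 to 0.03.

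The 89 genes leaned to 1 side of their own mean over the arrays more strongly on 5 of the 8 arrays than on the other 3. On Fra-2 knockout 1, 9 of the 89 genes lay above their own mean, and on Fra-2 control 1, 11 did. On Fra-1 knockout 2, 80 genes did, on Fra-1 control 1, 70, and on Fra-1 knockout 1, 63. The arrays with a weaker lean were Fra-2 control 2 with 56, Fra-1 control 2 with 47 and Fra-2 knockout 2 with 35. The slide moved with this position in 3 groups: the slide 2 array lay above its slide 1 mate in the Fra-2 controls (0.04 against -0.11), the arrays labelled Fra-2 knockout (-0.05 against -0.25) and the Fra-1 knockouts (0.18 against 0.06). Both Fra-1 controls were on slide 1, at 0.16 and 0.01. The part of the slide in these medians was not tested beyond the values with a slide term.

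The difference of the knockout effects, Fra-1 minus Fra-2, was fitted as an interaction. None of the 89 genes was called, and 0.00436% of all features (1) were. At an unadjusted p under 0.05 there were 4 genes, against 9.45% of all features. They were Ndufaf6 (0.70, SE 0.16, adjusted p = 0.286), Ndufaf4 (0.55, adjusted p = 0.391), Cox6a2 (1.18, adjusted p = 0.465) and Ndufa12 (0.44, adjusted p = 0.482). For Ndufaf6, Ndufaf4 and Ndufa12 the Fra-1 knockouts lay above their controls and the arrays labelled Fra-2 knockout below theirs, with no overlap in either line. Cox7a1 gave 0.63, Ndufab1 0.62 and Ndufb4 0.41. The median was 0.17 (all features 0.03), with 77 genes above 0 and 12 below. It was 0.09 with a slide term, and leaving out single arrays gave 0.07 (without Fra-2 knockout 1) to 0.28 (without Fra-2 knockout 2).

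Genes around the chain were read from lists of the pathway between the control groups, against 36.1% of all features called. Mitochondrial import and outer membrane genes had 12 of 25 called higher and 1 lower, with a median of 0.44. Vdac2, an outer membrane channel, read 6.14 and 6.46 in Fra-2 controls and 7.87 and 7.46 in Fra-1 controls (1.37, adjusted p = 0.00413). The chaperones Hspd1 and Hspa9 rose by 0.99 and 0.78 and the import chaperone Timm10 by 0.88. The mitochondrial ribosome, which makes the subunits encoded in mitochondrial DNA, had 17 of 77 genes higher and 3 lower (26.0% in all), with a median of 0.17. Mrpl2, Mrps18b and Mrps26 rose by 0.85, 0.79 and 0.71, and Mrpl38 fell by 1.30. The nuclear genes of the respiratory chain had 4 of 81 subunits called (4.94%). Unlike the lists here, those subunits had to be well above background on all 8 arrays.

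Other assembly factors had 7 of 37 higher and 1 lower. Bcs1l, which inserts the Rieske protein into complex III, read 1.69 and 1.71 in Fra-2 controls and 3.44 and 3.25 in Fra-1 controls (1.64, adjusted p = 0.000947). It read 2.06 and 2.42 in Fra-1 knockouts, below both of their controls (-1.11, unadjusted p = 0.000431, adjusted p = 0.179, not called). Coa5 and Coa7, factors of complex IV, rose by 1.07 and 0.79, and Coa6 by 0.53. Electron carriers and dehydrogenases that feed the chain had 4 of 20 higher and 3 lower. Coq10a and Etfb rose by 1.12 and 0.89. The sulfide oxidase Sqor and the glycerol phosphate dehydrogenase Gpd2 fell by 1.63 and 1.26, and Coq8a, which supports ubiquinone synthesis, fell by 1.90.

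The tricarboxylic acid cycle list had 1 of 18 higher, Ogdh (0.69), and 4 lower, among them Pcx (-1.15), Suclg2 (-0.91) and Pdha1 (-0.60). Regulators had 4 of 21 higher and 5 lower. Pparg, a nuclear receptor of lipid metabolism, read -0.10 and -0.59 in Fra-2 controls and 5.28 and 4.80 in Fra-1 controls (5.38, adjusted p = 0.000134). The coactivators Ppargc1a and Ppargc1b went opposite ways, at 3.13 and -0.96. Hif1a, the hypoxia factor, fell by 2.18, and Myc rose by 1.79. Nrf1, Esrra, Yy1 and Tfam, known activators of respiratory chain or mitochondrial genes, gave 0.08, 0.02, 0.01 and -0.09 and were not called. Acod1, which makes the complex II inhibitor itaconate, read 5.36 and 6.33 in Fra-2 controls and -0.01 and -0.21 in Fra-1 controls (-5.96, adjusted p = 0.000582), and the ATP synthase inhibitor Atpif1 rose by 0.51. In both knockout comparisons limma called 0 genes of these 7 lists. At an unadjusted p under 0.05 in limma's fit, the Fra-1 knockout had 4 of 77 ribosome genes, 4 of 37 assembly factors and 1 of 21 regulators, against 8.76% of all features. The Fra-2 knockout had 2, 1 and 1 of these, against 8.75% of all features, and 4 of 10 genes of the inhibitor and replacement list, among them Ucp1, an uncoupling protein of brown fat (1.67, adjusted p = 0.253).

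**Figure D5:**
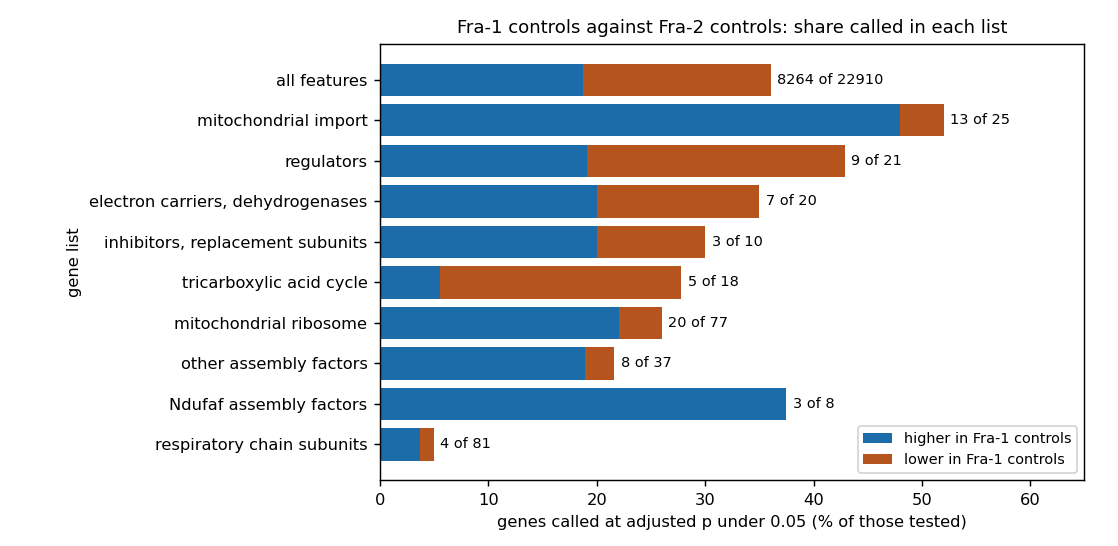
Bars give the share of tested genes called by limma between the control groups in each list, split by direction, with the counts beside them. The subunits of the chain have the shortest bar, 4 of 81, and all features together 8264 of 22910.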

How the data were processed

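RNA from 8 samples was measured on 8 arrays. Per the file headers, Agilent Feature Extraction 11.5.1.1 wrote each spot's processed signal, a background-subtracted intensity, and flags for spots well above background. The deposited log2 table of the authors matched the scanner values in scale and direction, was centred on each probe over the arrays, and served as an alternative. From the processed intensities, log2 minus each array's 75th percentile was taken, spots of a probe were averaged, and outlier and control spots were left out. Probes well above background on both arrays of at least 1 group were kept, which gave 22910 features from 55681 probes, 14395 of them named. A gene's brightest probe stood for it, by the mean over the arrays. The 75th percentile lay between 315 and 470 intensity units, and the number of arrays limits the precision.

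All 8 arrays entered 1 limma fit (limma 3.58.1, R 4.3.3) of 4 group means with 4 residual and 1.99 prior degrees of freedom. P-values were adjusted by Benjamini-Hochberg over all features in each comparison, and 95% intervals come from the moderated variance. The steps were tested on simulated data with independent noise and 200 features changed by known sizes. Those sizes were larger than most differences reported here, and no shift of a whole array or slide was simulated. Slide 1 held 5 arrays and slide 2 held 3. Genes named are a fixed list of isoforms and catalytic subunits, up to 12 called genes in a direction or else the 10 with the smallest p, 2 of each complex, and up to 4 of each other list. Gene members and lists were chosen with earlier results of these data known. Accessions were named through RefSeq, and none of the 13 mitochondrially encoded subunits was matched. Other programs were Python 3.11.15, pandas 2.3.3 and matplotlib 3.10.9. Alternatives were quantile normalization, normexp background correction (offset 50, on median signals), the deposited log2 table, other filters, the mean of a gene's probes, a slide term, arrays of 1 slide, only the groups compared, a trended prior and leaving out each array. Values of 1 gene are not reported here by name.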

Additional observations from a re-analysis of the deposited data

How the results depend on the processing

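None of the 7 respiratory chain genes called between the controls changed sign under any alternative run. The number of features called in the knockout comparisons moved most. For the Fra-1 knockout (3 called), quantile normalization gave 23, only the groups compared 1, and normexp, the filter on all 8 arrays, no filter, the slide term and the trended prior 0. For the Fra-2 knockout (2 called), quantile normalization gave 14, normexp 17, the filter on all 8 arrays 4, the trended prior 57, and no filter, the slide term and only the groups compared 0. For the difference of the effects (1 called), quantile normalization gave 10, and normexp, the filter on all 8 arrays, no filter, the slide term and the trended prior 0. Between the controls, the respiratory chain genes called (7) numbered 16 with quantile normalization, 4 with no filter, 12 with the slide term, 4 with only the groups compared and 13 with the trended prior. All features called between the controls ran from 6349 to 8969 over the settings other than leaving out single arrays, against 8264 in the main fit. The median of complex II in the Fra-1 knockout, -0.06, was 0.11 with the mean of each gene's probes. Fitting only the groups compared leaves fewer arrays to estimate the spread; for the other settings the cause was not tested.

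Leaving out single arrays gave 0 to 20 features called for the Fra-1 knockout, 0 to 47 for the Fra-2 knockout and 0 to 27 for the difference of the effects, and 3 to 8 respiratory chain genes between the controls. Medians ran from -0.22 to 0.10 for complex II in the Fra-1 knockout, from -0.22 to 0.0090 for complex IV in the Fra-2 knockout, and between the controls from 0.18 to 0.37 for the assembly factors, from -0.10 to 0.21 for complex II and from 0.050 to 0.31 for complex V. For the difference of the effects they ran from 0.069 to 0.28 over all 89 genes, 0.10 to 0.30 in complex I, 0.13 to 0.32 for the assembly factors, -0.018 to 0.18 in complex III and 0.076 to 0.31 in complex IV. A group left with 1 array is assumed to vary like the others. With no filter on dim probes, the median of all features between the controls was -0.19. Only the groups compared cannot give the difference of the effects, and within slide 2 only the Fra-2 comparison has both groups. No paired analysis was possible because the labels give the arrays no shared replicate numbers; the slide was fitted as a term instead. With 2 arrays a group, a p that misses the threshold does not show that a gene is unchanged.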
